A study of Cicer arietinum with 11 samples.

Results

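Flower bud 4, the last of 4 numbered bud stages of chickpea (Cicer arietinum), was set against flower buds 1, 2 and 3 to see which transcripts stand apart at the close of the bud series and whether they stay that way in the numbered flower stages. The comparison used 4 of the 11 libraries of the series, with flowers 1 to 4 (4 libraries) to follow the changes and the germinating seedling, young leaves and shoot apical meristem (3 vegetative libraries) as outside context. Flower bud 4, flower buds 1 to 3, the flowers and the young leaves came from mature field-grown plants, and the meristem from 20-day-old plants. The seedlings were raised indoors in a culture room, and all libraries were of the genotype ICC4958, with no treatment named. Each stage was 1 library, so no value of flower bud 4 has a replicate. Buds 1 to 3 are 3 stages and not replicate plants, and that the numbers follow age is how the labels are read here.

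A flower bud of a legume encloses sepals, petals, stamens and a carpel that mature together. In flowering plants generally, the pollen mother cells inside the young anther pass through meiosis while the bud is small. The tapetum, the nurse tissue that lines the anther, then breaks down as pollen matures, and the petals expand shortly before the flower opens. Which of these events falls in which numbered bud is not given in the labels used here. Transcripts carry only set-specific IDs, of which 0 of 34760 were found in the reference gene table, so what each encodes is not stated, organ markers could not be checked, and no sequences are shown. In whole buds, fewer cells of a type and less RNA per cell cannot be told apart.

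Values are RPKM, reads scaled by transcript length and by the library's reads. A transcript was counted as higher in flower bud 4 where its log2(RPKM + 1) there lay at least 1 above the highest of buds 1 to 3, and as lower where it lay at least 1 below the lowest. The distance to that nearest earlier bud is called the gap. Of 34760 transcripts, 31643 (91.0%) reached an RPKM of 1 in at least 1 bud and were compared. Library totals, recovered from the values, were 29706745 reads for bud 4 and 33854669, 14536530 and 35643139 for buds 1, 2 and 3, so bud 2 was the shallowest. With 1 library the margin rule is a rule of size and gives no p-value.

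By this rule 671 transcripts were higher in flower bud 4, which is 2.12% of those compared, and 350 were lower, which is 1.11%. Most of the differences were modest, with 491 of the 671 higher and 310 of the 350 lower transcripts at a gap between 1 and 2 on the log2(RPKM + 1) scale. A gap of at least 2 was met by 180 higher and 40 lower transcripts. The 95% Poisson intervals of bud 4 and of each earlier bud lay apart for 627 higher and 298 lower transcripts, and overlapped for 44 and 52. These transcripts were picked for a gap in the same values, which favors intervals that lie apart. The share over all compared transcripts is not given here. The numbers of higher and lower transcripts moved with the pseudocount and with the earlier buds used. With a pseudocount of 0.1 in place of 1, 931 transcripts were higher and 975 lower, so that lower ones were the more numerous. The lower count became 869 when bud 1 was left out and 794 when bud 3 was left out, while the higher count became 1259 without bud 3. Without bud 1 the balance also turned, with 823 higher and 869 lower.

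Bud 4 and bud 1, the ends of the numbered series, stood apart from the other buds more often than the middle stages. The rule favors the ends. A transcript in ascending or descending order through the 4 buds, 7.38% and 12.1% of those compared, can be called only for bud 1 or bud 4. The same rule gave 711 higher (2.25%) and 673 lower (2.13%) transcripts for bud 1 against buds 2 to 4. It gave 252 (0.796%) and 135 (0.427%) for bud 2, and 191 (0.604%) and 124 (0.392%) for bud 3. Both ends thus held similar numbers of higher transcripts, but bud 4 had fewer lower ones than bud 1, and these counts have no test. Across the transcripts compared, bud 4 ranked most like bud 3, with a Spearman correlation of 0.925, and next most like flower 1, at 0.917. The correlation was 0.892 with bud 2 and 0.851 with bud 1. It was 0.903, 0.820 and 0.835 with flowers 2, 3 and 4, and 0.702 to 0.733 with the vegetative libraries.

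**Figure D1:**
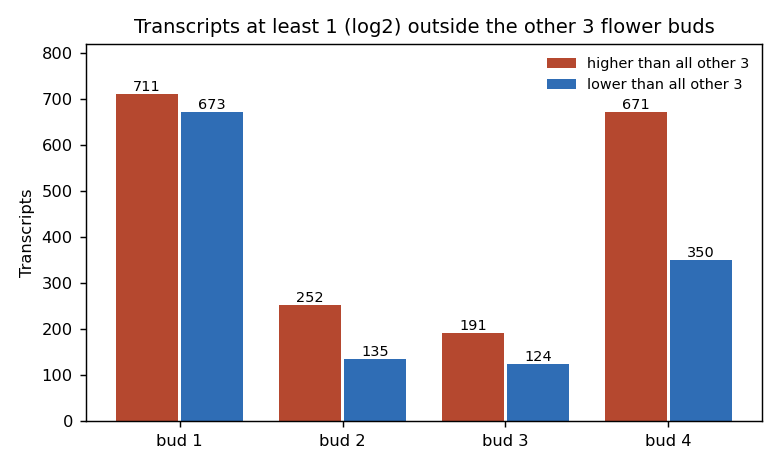
Number of transcripts at least 1 (log2(RPKM + 1)) above or below all other 3 flower buds, for each of the 4 bud libraries. Red bars are transcripts higher and blue bars transcripts lower in the named bud, with 671 and 350 in bud 4 and 711 and 673 in bud 1.

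The higher transcripts took up a large part of the message pool from bud 4 on. They made up 8.31% of all RPKM in flower bud 4, against 0.755%, 1.36% and 2.53% in buds 1, 2 and 3. As a share of reads they held 6.83% in bud 4, against 0.688%, 1.24% and 2.25%. Their share was 8.70% in flower 1 and 7.93% in flower 2, then 3.67% in flower 3 and 5.84% in flower 4. In the 3 vegetative libraries it lay between 0.681% and 0.757%. The 10 most abundant of them held 2.13% of all RPKM in bud 4, so the share was spread over many transcripts. The lower transcripts held 0.308% of RPKM in bud 4, against 1.59%, 1.38% and 1.09% in buds 1, 2 and 3. These shares describe transcripts picked for their level in bud 4, and a share is no test of the stage.

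**Figure D2:**
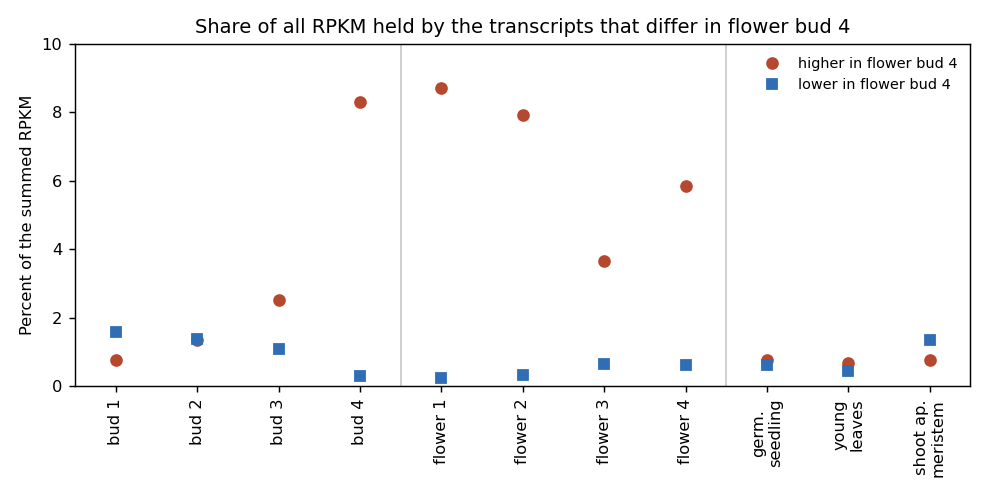
Percent of each library's summed RPKM held by the 671 transcripts higher (red circles) and the 350 lower (blue squares) in flower bud 4, in the 4 buds, 4 flowers and 3 vegetative libraries. The higher transcripts reach 8.31% in bud 4 and 8.70% in flower 1, and the lower ones 0.308% and 0.239%.

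For many of the higher transcripts bud 3 was already above buds 1 and 2. Their median level was 31.7 RPKM in flower bud 4, against 3.10, 4.18 and 7.88 RPKM in buds 1, 2 and 3. The highest earlier bud was bud 3 for 520 of the 671 (77.5%), where this holds for 29.7% of all transcripts compared. Levels stood in ascending order over buds 1, 2 and 3 for 374 (55.7%), against 19.1% of all compared, and with bud 4 as the top step 7.38% of all compared ascended through the 4 buds. For 277 (41.3%) bud 3 was itself at least 1 (log2) above bud 1, against 8.32% of all compared. The 3 earlier buds lay within 1 of each other for 360 (53.7%), a smaller share than the 76.7% of all compared. The rule reads the highest earlier bud, so the order of buds 1 to 3 is given here as a description only.

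For the lower transcripts the medians of the 3 earlier buds lay nearer to each other than for the higher ones. Their median was 2.18 RPKM in flower bud 4, against 11.8, 12.8 and 9.86 RPKM in buds 1, 2 and 3. Bud 3 was the lowest earlier bud for 169 of the 350 (48.3%), against 38.5% of all transcripts compared. Levels stood in descending order over buds 1, 2 and 3 for 103 (29.4%), close to the 27.1% of all compared, of which 12.1% descended through all 4 buds. The earlier buds lay within 1 of each other for 203 (58.0%), again a smaller share than the 76.7% of all compared.

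**Figure D3:**
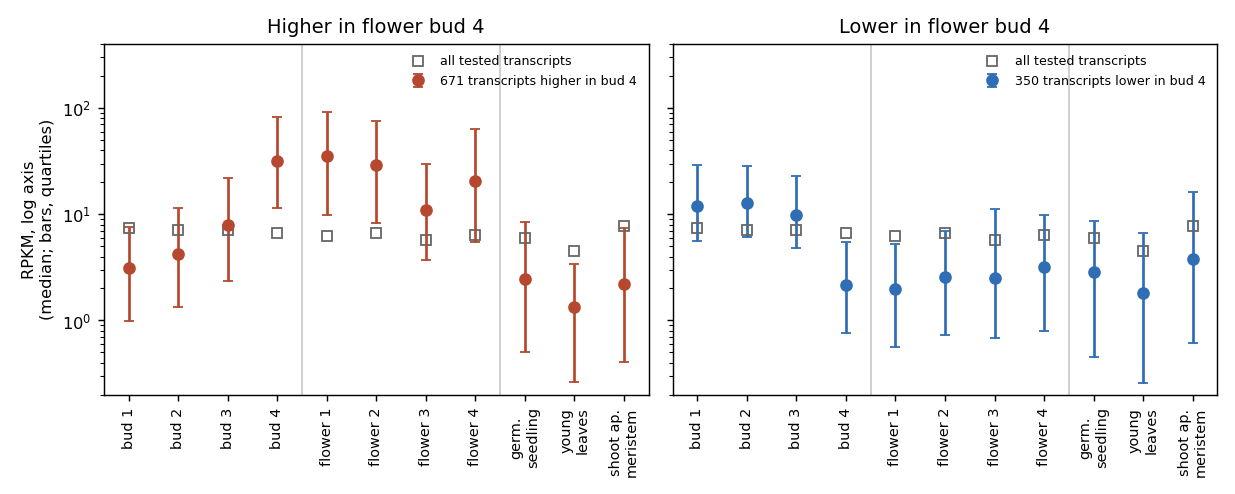
Median RPKM on a log axis, with quartiles as bars, of the 671 transcripts higher (left) and the 350 lower (right) in flower bud 4, in each of the 11 libraries, with the median of all 31643 compared transcripts as open squares. The higher set has medians of 31.7 in bud 4 and 10.8 in flower 3, and the lower set 2.18 in bud 4 and 2.00 in flower 1.

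The 10 largest gaps among the higher transcripts belonged to a set with at most 2.79 RPKM in buds 1 to 3. Ranking by gap favors such low values. Of the 671 higher transcripts, 64 (9.54%) were below 1 RPKM in all 3 earlier buds, against 0.954% of all compared. Those 64 passed the filter only through bud 4. Ca_TC19894 had 76.3 RPKM in flower bud 4, against 0.0985, 0.382 and 0.904 RPKM in buds 1, 2 and 3. That is 84.4-fold above bud 3, with a 95% counting interval of 58.6 to 126. Its flowers held 124, 79.96, 22.9 and 95.3 RPKM in stages 1 to 4, all far above the earlier buds. Ca_TC07392 had 147 RPKM in bud 4, against 2.58, 1.49 and 2.79 RPKM in buds 1 to 3, and 217, 156, 43.6 and 202 RPKM in flowers 1 to 4. It was the most abundant of the 10 in bud 4 and the only one with an RPKM of 1 or more in a vegetative library.

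Others in this set had few or no reads in the earlier buds. Ca_TC19579 had 27.3 RPKM in flower bud 4 and 0 reads in buds 1, 2 and 3. Against a floor of 3 reads over the 3 earlier buds it was at least 398-fold higher. Its flowers had 68.5, 37.1, 17.8 and 57.2 RPKM. Ca_TC21472 had 25.3 RPKM in bud 4 and likewise 0 reads in the 3 earlier buds, so it was at least 145-fold higher. Ca_TC19635 had 31.5 RPKM in bud 4, against 0, 0 and 0.142 RPKM in buds 1 to 3. All 3 had 0 reads in the vegetative libraries.

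The remaining 5 of the 10 were Ca_TC20011, Ca_TC18668, Ca_TC20520, Ca_TC21470 and Ca_TC19235. Ca_TC20011 had 53.8 RPKM in bud 4, against at most 0.629 in an earlier bud. Ca_TC18668 had 119 RPKM in bud 4, against 0.385, 0 and 2.78 in buds 1, 2 and 3. Within the 10, 9 stayed below 1 RPKM in all 3 vegetative libraries and 6 had 0 reads there. All 10 met the margin in all 4 flowers, where flower 3 was the lowest in 10 of 10 and flower 1 the highest in 6. None of the 10 passed limma against the spread between stages, with adjusted p from 0.0647 to 0.232, although their log2 differences from the mean of the earlier buds were 4.72 to 6.11.

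Among the lower transcripts, the 10 with the largest gaps had at most 3.49 RPKM in bud 4 and at most 11.7 RPKM in a flower. Ranking by gap favors low values in bud 4. Ca_TC29532 had 0.446 RPKM in flower bud 4, which is 2 reads, against 85.9, 306 and 118 RPKM in buds 1, 2 and 3. Relative to bud 1, its lowest earlier bud, it was 193-fold lower, with a counting interval of 53.0 to 1595. Flowers 1 to 4 had 0, 0.453, 0 and 0.265 RPKM. Ca_TC29802 had 1.65 RPKM in bud 4, against 62.2, 79.9 and 59.3 RPKM in buds 1 to 3, and 0 reads in all 4 flowers. Its 3 earlier buds lay close together, and bud 4 was 36.0-fold below the lowest of them (22.0 to 63.3).

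Stepwise lower levels from bud 1 on were seen in Ca_TC02788, with 0.194 RPKM in flower bud 4, against 182, 62.6 and 21.9 RPKM in buds 1, 2 and 3. Ca_TC10443 was alike, with 0.0792 RPKM in bud 4, against 97.2, 54.7 and 14.3 RPKM. Ca_TC29824 and Ca_TC23113 had 1.24 and 0.518 RPKM in bud 4 and 0 reads in every flower and vegetative library. Their earlier buds held 25.6 to 47.7 and 16.1 to 36.0 RPKM. Ca_TC12515 and Ca_TC19327 differed from the rest in that all 4 flowers lay above bud 4. Ca_TC12515 had 2.04 RPKM in bud 4, against 69.5, 73.7 and 34.2 RPKM in buds 1 to 3, and 5.51, 4.27, 11.7 and 11.6 RPKM in flowers 1 to 4. Even so, each of the 10 met the margin below the earlier buds in all 4 flowers, and 9 stayed below 1 RPKM in all 3 vegetative libraries.

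**Figure D4:**
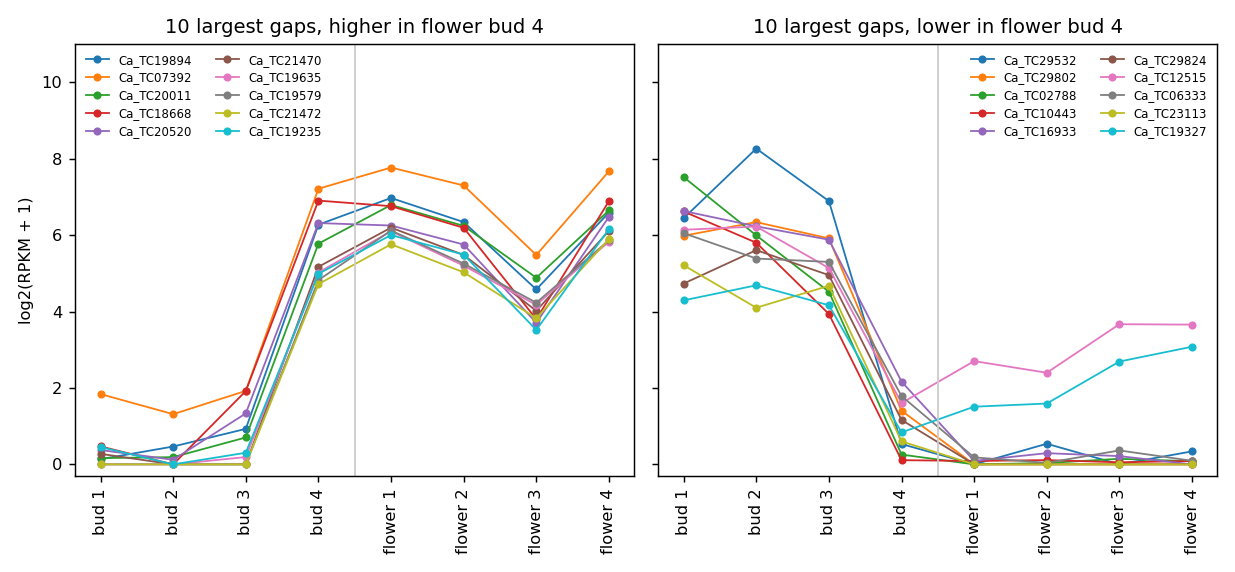
log2(RPKM + 1) over buds 1 to 4 and flowers 1 to 4 of the 10 transcripts with the largest gap above (left) and below (right) the earlier buds in flower bud 4, 1 line per transcript and 1 library per point. On the left, flower 3 is the lowest flower for all 10. On the right, Ca_TC12515 and Ca_TC19327 lie higher in the flowers than in bud 4.

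Against the spread between stages, few single transcripts passed a test. A limma fit on log2(RPKM + 1) over bud 4, buds 1 to 3 and flowers 1 to 4 called 2 transcripts higher (0.00632%) and 8 lower (0.0253%) in flower bud 4. It takes bud 4, a lone library, to vary like the stages within the other 2 groups. All 10 calls are among the transcripts the margin rule found, which reads the same bud values, so the overlap is no separate support. Of the 31643 transcripts tested, 751 higher and 593 lower reached an unadjusted limma p under 0.05 with a difference of at least 1. These numbers carry no adjustment for the many transcripts tested and are not calls. The 2 higher calls were Ca_TC12374 and Ca_TC32077, named because they passed, after their values were seen. Ca_TC12374 rose to 47.9 RPKM in bud 4, against 3.39, 5.24 and 6.04 RPKM in buds 1 to 3 (log2 difference 3.08 ± 0.30, SE; limma, adjusted p = 0.0313). It had 85.9, 79.5, 68.7 and 79.2 RPKM in flowers 1 to 4, all above bud 4. Ca_TC32077 rose to 33.1 RPKM in bud 4, against 0.480, 0.559 and 1.60 RPKM (4.23 ± 0.48, SE; limma, adjusted p = 0.0441). Its flowers had 7.54, 7.10, 3.59 and 6.52 RPKM, well below bud 4.

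The 8 transcripts that fell in limma were Ca_TC29532, Ca_TC29802, Ca_TC16933, Ca_TC23113, Ca_TC29824, Ca_TC06333, Ca_TC05534 and Ca_TC15812. The first 6 are among the 10 largest gaps. Ca_TC29802 had the lowest adjusted p, 0.00723 in limma, with a log2 difference of -4.67 ± 0.32 (SE). Ca_TC05534 fell to 9.40 RPKM in bud 4, against 61.2, 77.4 and 74.0 RPKM in buds 1 to 3 (-2.78 ± 0.29, SE; limma, adjusted p = 0.0377). In the flowers it had at most 0.0335 RPKM, and in vegetative libraries 0 reads. Ca_TC15812 fell to 22.4 RPKM in bud 4, against 116, 136 and 96.3 RPKM (-2.31 ± 0.26, SE; limma, adjusted p = 0.0441), and flowers 1 to 4 held 9.24, 9.32, 9.68 and 10.9 RPKM. All 8 met the margin below the earlier buds in all 4 flowers. These calls depend on the libraries that give the spread. The 2 higher and 8 lower calls became 1 and 9 without bud 1, 0 and 2 without bud 2, and 14 and 23 without bud 3. They became 0 and 1 without flower 1, 2 or 4, and 48 and 14 without flower 3.

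Persistence in the flowers was scored in 3 grades. A transcript was held in a flower that still lay at least 1 beyond the nearest earlier bud, returned in one that reached that bud's level, and partial in between. Flowers and bud 4 are set against the same 3 earlier buds, so the grades share their baseline with the choice of transcripts. Of the 671 higher transcripts, 458 (68.3%) were held in flower 1, 380 (56.6%) in flower 2, 180 (26.8%) in flower 3 and 325 (48.4%) in flower 4. Over all transcripts compared, 5.03%, 5.62%, 6.95% and 7.39% met the same margin in flowers 1, 2, 3 and 4. Of the 350 lower transcripts, 238 (68.0%), 197 (56.3%), 191 (54.6%) and 185 (52.9%) were held in flowers 1 to 4, and the background shares were 4.19%, 3.96%, 10.4% and 6.64%.

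Fewer transcripts kept the difference through every flower. All 4 flowers held the difference for 133 higher transcripts (19.8%) and 139 lower ones (39.7%), where 1.63% and 1.81% of all compared transcripts met it in those directions. The near-even balance depended on the scaling, with 179 higher and 96 lower held transcripts under median-of-ratios scaling and 167 and 112 under quantile normalization. Without bud 3 there were 317 and 315, and without bud 1 there were 165 and 245. A pseudocount of 0.1 gave 208 and 229, and one of 5 gave 65 and 53. No flower held it for 185 higher (27.6%) and 71 lower (20.3%) transcripts. A return in all 4 flowers was seen for 41 higher (6.11%) and 7 lower (2.00%) transcripts. The share over all compared transcripts is not given here for no flower held, for a return in all 4, or for every flower but flower 3. Flower 3 was the flower most often missing: 142 transcripts were held in every flower but that one, and without flower 3 the number held in all flowers left was 275. The next largest such group, held in every flower but flower 4, had 29. Flower 3 was the lowest flower for 443 of the 671 (66.0%), but also for 39.1% of all transcripts compared. Flower 3 also had the lowest depth of the flowers, 20366054 reads against 24784511 to 29207580 in the others. Its median-of-ratios scaling factor was the lowest too, 0.876 against 0.953 to 1.004 in the other flowers. The part of depth or scaling in the result was not tested.

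Measured against bud 4 itself, the higher transcripts had a similar median level in flower 1, though single transcripts often differed. Their median log2 difference from bud 4 was -0.13 in flower 1, -0.51 in flower 2, -1.70 in flower 3 and -0.59 in flower 4. Over all compared transcripts, bud 4 lay above flowers 1 to 4 by medians of 0.07, 0.01, 0.20 and 0.08. In flower 1, 462 of the 671 lay within 1 of bud 4, 103 lay at least 1 above it and 106 at least 1 below. Over all compared transcripts, 3343 of 31643 lay at least 1 from bud 4 in flower 1, in either direction. By flower 3, 457 of the 671 lay at least 1 below bud 4. There 8497 of all 31643 lay at least 1 from it in either direction. For the lower transcripts the medians were -0.07, 0.10, 0.19 and 0.21 in flowers 1 to 4, with members moving both ways. Their share of all RPKM was 0.239%, 0.312%, 0.652% and 0.623% in flowers 1 to 4, against 0.308% in bud 4, so flowers 3 and 4 held the larger shares. Their upper quartile was 11.2 RPKM in flower 3 and 9.90 RPKM in flower 4, against 5.44 RPKM in bud 4. In flower 4, 101 of the 350 were at least 1 above bud 4 and 57 at least 1 below it. Of all 31643 compared, 6834 lay at least 1 from bud 4 there in either direction.

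**Figure D5:**
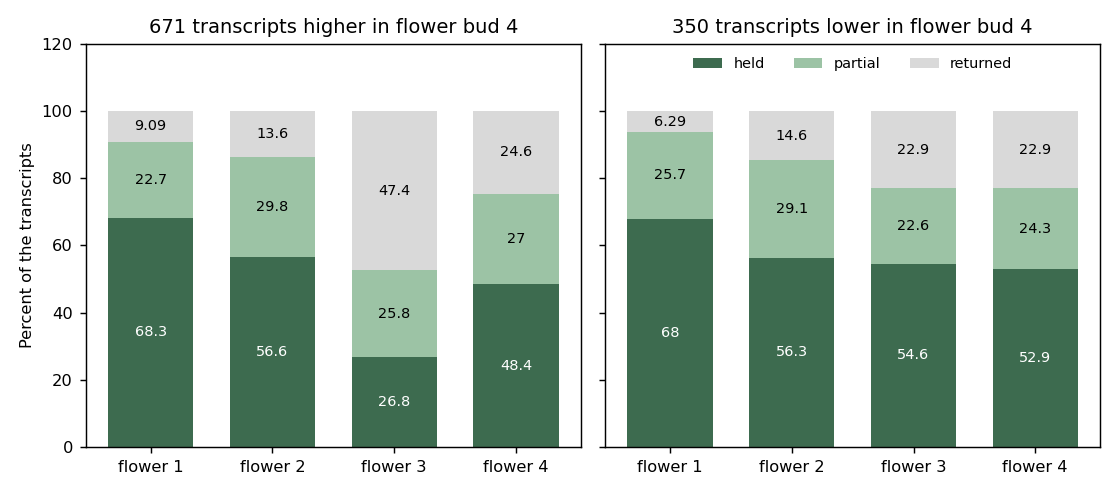
Percent of the 671 transcripts higher (left) and 350 lower (right) in flower bud 4 that were held, partial or returned in each of flowers 1 to 4, relative to the nearest of flower buds 1 to 3. Held shares of the higher set are 68.3%, 56.6%, 26.8% and 48.4%, and of the lower set 68.0%, 56.3%, 54.6% and 52.9%.

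Some higher transcripts peaked in bud 4 among the 8 reproductive libraries. Bud 4 was the highest of the 8 for 334 of the 671 (49.8%), against 8.68% of all transcripts compared, and 81 (12.1%) lay at least 1 above all the other 7. The rule itself required bud 4 to top the other buds. Any compared transcript at least 1 above all the other 7 is thus among the 671, so these are 81 of all 31643. Ca_TC30918 had the widest such margin, with 32.9 RPKM in flower bud 4, against 1.99, 4.30 and 3.10 RPKM in buds 1 to 3. It had 1.55, 0.494, 1.18 and 2.31 RPKM in flowers 1 to 4, so every flower was back at or under the highest earlier bud. Ca_TC18752 was the most abundant of the 5 with the widest margin, with 1640.0 RPKM in bud 4, against 61.5, 102 and 360 RPKM in buds 1 to 3. Its flowers were lower at each stage in turn, with 320, 156, 65.0 and 49.6 RPKM. Ca_TC25948 had 81.8 RPKM in bud 4, against 7.04, 10.8 and 12.4 RPKM, and its highest flower had 16.0. Ca_TC32905 and Ca_TC29585 had 33.0 and 44.4 RPKM in bud 4, against at most 6.52 and 8.66 in an earlier bud. None of the 5 passed limma, with adjusted p of 0.167 to 0.663. All but Ca_TC18752 were shorter than 300 bases by the recovered lengths.

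The mirror image, a dip in bud 4 alone, was rarer and smaller on the log2(RPKM + 1) scale. That scale understates the change of low transcripts. As ratios to the nearest earlier bud, the 5 dips with the widest margin were 3.03- to 10.2-fold. The 5 such peaks were 4.55- to 7.64-fold. Bud 4 was the lowest of the 8 for 117 of the 350 lower transcripts (33.4%), against 8.49% of all compared. At least 1 below all the other 7 lay 17 (4.86%), which by the rule are also 17 of all 31643. Ca_TC19981 had 5.61 RPKM in flower bud 4, against 19.5, 49.0 and 35.0 RPKM in buds 1 to 3, and 18.7, 35.8, 43.4 and 18.7 RPKM in flowers 1 to 4. Ca_TC23051 had 2.75 RPKM in bud 4, against 11.9, 12.1 and 8.31 RPKM, and its flowers lay above every bud at 18.2, 24.98, 37.3 and 61.6 RPKM. Ca_TC09875 was at 1.83 RPKM in bud 4, against 510.0, 20.4 and 7.49 RPKM in buds 1, 2 and 3. Ca_TC17412 and Ca_TC28584 had only 3 reads and 0.186 RPKM, and 3 reads and 0.692 RPKM, in bud 4. Their counting intervals for the fold below the lowest earlier bud, 2.89 to 55.1 and 1.14 to 22.2, are wide. None of the 5 passed limma, with adjusted p of 0.474 to 0.9. At a pseudocount of 5, only Ca_TC19981 of the 5 kept a gap of at least 1 below the earlier buds. The gap was then 0.78 for Ca_TC23051, 0.41 for Ca_TC17412, 0.87 for Ca_TC09875 and 0.46 for Ca_TC28584.

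Vegetative levels, which the rule did not use, were lower in both lists than over all transcripts compared, as a description with no test. Of the 671 higher transcripts, 148 (22.1%) were below 1 RPKM in all 3 vegetative libraries, and of the 350 lower ones 76 (21.7%), against 3.70% of all transcripts compared. An RPKM of at least 1 in all 3 was found for 304 higher (45.3%) and 180 lower (51.4%) transcripts, against 78.2% of all. A vegetative library reached or passed bud 4, the level the rule did use, for 87 of the higher transcripts (13.0%) and 247 of the lower ones (70.6%), against 72.8% of all. Their vegetative medians were 2.47 RPKM in the germinating seedling, 1.35 in young leaves and 2.19 in the shoot apical meristem. For the lower transcripts these were 2.84, 1.80 and 3.83 RPKM. The meristem held 1.34% of its RPKM in the lower transcripts, the seedling 0.619% and young leaves 0.435%, against 1.59% in bud 1. In the meristem the 10 most abundant of them alone held 0.627%. Their median there, 3.83 RPKM, was lower than the 11.8 RPKM of bud 1. Recovered lengths were shorter than usual, with medians of 605 bases for the higher and 439.5 for the lower transcripts, against 793 for all compared. The part of length in these counts was not tested.

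At the edge of the rule the distinction is one of hundredths. Ca_TC16203 and Ca_TC30617 lay just inside the margin for higher, with 151 RPKM in flower bud 4 against at most 74.9, and 60.3 against at most 29.6. Ca_TC01753 and Ca_TC23660 lay just outside, with 14.3 RPKM against at most 6.63, and 1.74 against at most 0.370. Ca_TC11572 and Ca_TC33943 were the closest inside for lower, with 126 RPKM in bud 4 against at least 253, and 0.935 against at least 2.87. Ca_TC23709 and Ca_TC32370 were just outside, with 0 reads against at least 0.997 RPKM, and 0.656 RPKM against at least 2.30. On the log2(RPKM + 1) scale a low transcript needs a larger ratio than an abundant one to reach the margin.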

How the data were processed

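The 11 files hold RPKM, which the authors computed per transcript and library after filtering reads with NGS QC Toolkit and mapping them to 34760 transcripts, per the series text. For the aligner, and for how it treated reads shared by transcripts, the answer is not given in the sources used here. Values of near-identical transcripts are therefore uncertain. Each file had 128 blank rows, left out. Whole reads, library totals and transcript lengths (at least 100 bases) were recovered by finding the totals and the shortest lengths that make every value a whole number of reads, within 4e-09 of the value plus 3e-06 reads. All 34703 transcripts above 0 were resolved, and the reads summed to 99.952% to 99.998% of totals of 14536530 to 35643139. The method was checked on simulated data. Floors of 3 reads and 95% intervals (Poisson, and Clopper-Pearson for ratios) cover counting error only.

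Differences were taken on log2(RPKM + 1), which understates the change of low transcripts. limma 3.58.1 in R 4.3.3, with an intensity trend, was fitted to 8 reproductive libraries in 3 groups, with Benjamini-Hochberg adjustment over 31643 transcripts, and called at adjusted p under 0.05 and a difference of at least 1. Its p-values measure the spread between stages, not plants. Tables were made in Python 3.11.15. The transcripts named were the 10 largest gaps in each direction, the 5 widest margins kept through all 4 flowers, the 5 widest margins of bud 4 over all other 7 reproductive libraries, and the 2 nearest each side of the threshold. The 5 widest kept margins are all among the 10 largest gaps in each direction. The limma calls were added after their values were seen. The comparison, its rule and these choices were made with earlier results of these data known. The alternatives were other pseudocounts, filters, margins and scalings, other sources of spread, and each library left out.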

Additional observations from a re-analysis of the deposited data

Results flagged for a closer look

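Of 38 named transcripts examined over the 4 flowers, Ca_TC17412, whose level dips in flower bud 4, had 1 flower far from the others. It had 46.6 RPKM in flower 4, against 1.79, 8.02 and 3.99 RPKM in flowers 1, 2 and 3, and its highest vegetative level was 157 RPKM in the shoot apical meristem. Chance alone flags about 1 in 20 such groups.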

How the results depend on the processing

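The 671 higher, 350 lower, 133 held higher and 139 held lower transcripts moved by over 1.5 times with the pseudocount, the margin or an earlier bud left out, and the held higher count also without flower 3. A pseudocount of 0.1 gave 975 lower, 208 held higher and 229 held lower transcripts, with 931 higher, so that lower transcripts were the more numerous. A pseudocount of 5 gave 412, 87, 65 and 53 in the same order as the first 4 counts, and a margin of 2 gave 180, 40, 31 and 28. Leaving out 1 earlier bud at a time gave 776 to 1259 higher, 518 to 869 lower, 161 to 317 held higher and 169 to 315 held lower transcripts. Leaving out 1 flower at a time gave 134 to 275 held higher and 141 to 153 held lower. With median-of-ratios scaling there were 764 higher and 263 lower transcripts, with quantile normalization 753 and 283. The held counts were 179 and 96, and 167 and 112, under these scalings, and the median log2 difference of all compared transcripts moved from -0.11 to -0.01 and -0.05. Higher transcripts were 65.7% of those that differed as deposited, and 74.4% and 72.7% with these scalings. All 671 higher and 263 of the 350 lower transcripts remained under median-of-ratios scaling. Its factors, by which values are divided, were 1.14, 1.09 and 1.05 for buds 1, 2 and 3, against 1.01 for bud 4. Such factors lower the earlier buds relative to bud 4, which favors keeping higher transcripts and losing lower ones. The filter at 5 RPKM and no filter left the 4 counts within 1.5 times.

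The limma counts of 2 higher and 8 lower became 4 and 1 at a pseudocount of 0.1, and 4 higher at 5. They became 1 higher at an RPKM of at least 5, and 0 and 1 with no filter. With no filter, 669 and 546 had an unadjusted limma p under 0.05 together with a difference of at least 1. With the spread from all 11 libraries the calls were 14 and 21, and from the 4 buds alone 0 and 0. The 4 buds alone gave 944 and 640 at that unadjusted p and difference. The replicate block, with stage number as the pair, gave 0 and 0 calls (773 and 781 at that unadjusted p and difference). The numbers are stages and pair no samples: deviations of same-numbered buds and flowers correlated at -0.12, -0.07 and -0.19. Leaving out 1 library at a time gave 0 to 48 higher and 1 to 23 lower. Each of the 10 calls kept its direction in 16 alternatives and was kept in 5 to 14 of them, with a highest adjusted p of 0.903 in limma under the block. The cause of these moves was not tested. Counting intervals overlapped between bud 4 and an earlier bud for 52 of the 350 lower transcripts and 44 of the 671 higher ones. Both lists were picked for a gap in the same values, and the share over all compared transcripts is not given here. The part of depth, level or length in these overlaps was not tested. Of 266 recomputed gaps of named transcripts, 242 kept their side of the margin, 12 dropped below it, 12 rose above it and 0 changed sign. Of those that dropped, 4 were the dips of Ca_TC23051, Ca_TC17412, Ca_TC09875 and Ca_TC28584 at a pseudocount of 5. Leaving out an earlier bud can only keep or widen a gap. Those recomputations could therefore not drop a transcript below the margin or change its sign.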
